A study of Saccharomyces cerevisiae with 9 samples.

Results

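The genes that encode the proteins of the small (40S) ribosomal subunit of Saccharomyces cerevisiae were followed by their mRNA 3′ ends after nuclear depletion of Bdp1, alone or together with Rna15. Members were all features named RPS with a number and an optional A or B. There were 56 of them among 6516 listed features, and all 56 were listed in each of the 3 tables. They form 24 A/B paralog pairs and 8 single genes, 36 hold an intron, and their coding sequences run from 171 to 786 nt. Every gene name could be checked against the R64 annotation, whose coordinates matched for the members.

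Total RNA was read directly on an Oxford Nanopore instrument, so that a read begins at the poly(A) tail and marks the transcript's 3′ end. In the group Bdp1AA Rna15AA, strain HHY168 fpr1delta::hphMX4 carried BDP1-FRB::kanMX6 and RNA15-FRB::His. In the group Bdp1AA it carried BDP1-FRB::kanMX6 alone, and in the group WT it carried no FRB fusion. All 3 groups had 3 libraries, and all were given rapamycin for 2 h. As background, HHY168 is an anchor-away strain: rapamycin links an FRB-tagged protein to FKBP12 fused to the large subunit protein Rpl13A and so carries it out of the nucleus, and its tor1-1 allele keeps growth insensitive to the drug. Nothing in the labels says whether the libraries of a group came from separate cultures, and no untreated culture was analysed here. The deposited tables pool the 3 libraries of a group in 1 column, so no spread between replicates exists, no test was run, and all intervals below are exact 95% intervals of read counts that cover counting error only.

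Signal is the deposited, scaled number of read ends downstream of a gene. A single read was worth 0.0758 in Bdp1AA Rna15AA, 0.0510 in Bdp1AA and 0.0429 in WT, and downstream reads amounted to 7020861, 14096898 and 22048431 in that order, so the depth was lowest in the double depletion. Members took 827081, 1885675 and 3653640 of these reads. Each read gives 1 end whatever the length of its transcript, so signals of different genes need no division by length. They compare numbers of molecules read, but a read can count under more than 1 gene. Of the listed positions 9.01% in Bdp1AA Rna15AA, 5.46% in Bdp1AA and 7.15% in WT stood under several genes. Ratios between groups still differed with gene length, as the medians given below for the members' length range show. Between groups, log2 ratios of signal are given relative to the median gene, whose own ratio on the deposited scale was −0.34 for Bdp1AA Rna15AA against Bdp1AA, −0.86 for Bdp1AA Rna15AA against WT and −0.51 for Bdp1AA against WT; a difference of 2-fold is called lower or higher. Less of an mRNA in the cells and more of all other RNA cannot be told apart in such values. As a check of the labels, BDP1 was not listed in either depletion table and had 298 reads in WT, and RNA15 was not listed in Bdp1AA Rna15AA and had 143 reads in Bdp1AA and 380 in WT. FPR1, labelled as deleted in all groups, was not listed in either depletion table but had 158 reads as deposited in the library pool labelled WT, 30 of them above the common minimum used here, so every direction against WT below is against a pool in which this gene went against its label.

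Small subunit proteins bind the 18S rRNA, and the subunit they form selects the start codon and decodes the mRNA. In yeast most of these proteins come from a pair of paralogs left by an ancient genome duplication, and their genes are among the most strongly transcribed by RNA polymerase II. Their mRNAs end where the cleavage and polyadenylation machinery cuts. Rna15 is the subunit of cleavage factor IA that binds the RNA near the cut site. Bdp1 belongs to TFIIIB, which sits upstream of tRNA genes and recruits RNA polymerase III; the series title names TFIIIB as a roadblock that affects the choice of cleavage and polyadenylation site.

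The 3′ ends around which the results turn are shown as windows of 30 bases of the R64 reference, written 5′ to 3′ in the direction of transcription. In the first 8 windows the capital marks the end with most signal in WT. They belong to the pairs RPS9, RPS24, RPS27 and RPS30, which hold the members that were lowest in Bdp1AA, and they show that the copies of a pair end in unlike sequence.
RPS9A, chrXVI:406196-406225, plus strand: ataatataagaaagtaaacgcaaAagatag
RPS9B, chrII:605555-605584, plus strand: aaatcacggatcatttttcatttTactttg
RPS24A, chrV:307276-307305, plus strand: taaaaaatataatcaataattttAagagat
RPS24B, chrIX:231356-231385, minus strand: agcaaaaacctcaaaacttcaaaAagagta
RPS27A, chrXI:159410-159439, plus strand: tgaatatattaatattattacttTatttcc
RPS27B, chrVIII:147785-147814, minus strand: ataaatttacttttaatcaattaAattaac
RPS30A, chrXII:712343-712372, minus strand: ataaattatttctttaggactttAacttcg
RPS30B, chrXV:678116-678145, minus strand: aaacaaaaatattataattaggaAatattt
RPS7B is the member whose preferred end differed between Bdp1AA and WT, and its capitals mark the ends 195, 205 and 217 nt past the gene. RPS23A had 42.4% of its reads beyond 300 nt in Bdp1AA Rna15AA and under 1% in both other groups, and its windows hold the end at 173 nt, the first in WT, and the end at 324 nt, the first beyond 300 nt.
RPS7B, chrXIV:443179-443208, minus strand: gctttAattggtgttTtgacattttggAat
RPS23A end at 173 nt, chrVII:727880-727909, plus strand: aaaaaacaacataatttgcacttTattttg
RPS23A end at 324 nt, chrVII:728031-728060, plus strand: atttaagtaacctgattacgtttTattttt
All windows lie past the coding sequence. The genomic base after a listed end was A for 94.2% of plus strand and 93.8% of minus strand genes, and the base after that was A for 0.275% and 0.239%, so the last template base cannot be told apart from the first bases of the poly(A) tail. In the 60 bases before the WT end, AATAAA was found in 13 of 56 members (23.2%) and in 15.4% of 4914 other coding genes, and TATATA in 16 members (28.6%) and 38.4% of the other genes. Both motifs were searched on the transcribed strand alone, and windows in which matches of the 2 motifs share bases were not treated apart. The members that hold AATAAA include RPS3, RPS15, RPS26A, RPS7A and RPS9B.

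Members were among the most abundant mRNAs in all groups. Together they held 11.8% of the downstream signal in Bdp1AA Rna15AA, 13.4% in Bdp1AA and 16.6% in WT. The median member had a signal of 732 in Bdp1AA Rna15AA, 1566 in Bdp1AA and 2655 in WT, against 24.8, 21.1 and 25.7 for the median coding gene. The range over members was wide in each group: 20.2 to 6112 in Bdp1AA Rna15AA, 27.6 to 5777 in Bdp1AA and 244 to 8864 in WT.

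The strongest member was RPS31, which encodes a fusion of ubiquitin with its ribosomal protein, with a signal of 6112 in Bdp1AA Rna15AA, 5631 in Bdp1AA and 8864 in WT. RPS12, a protein of the head, had 2032, 5777 and 7354. RPS26A, whose protein lines the mRNA exit channel, had 3749, 5235 and 6327. These 3 mRNAs led the set in WT, and RPS28A, with 3895 in Bdp1AA Rna15AA, 2974 in Bdp1AA and 3857 in WT, ranked next to RPS31 in the double depletion. RPS27B had 2696, 3858 and 5653. RPS15, near the decoding site, had 2725, 2763 and 4071. On the deposited scale the RPS15 values of both depletions lay closer to each other than to WT, while relative to the median gene RPS15 had a log2 ratio of −0.05 in Bdp1AA against WT and of 0.32 between the depletions. The weakest members in WT were RPS22B (182, 108 and 244), RPS9A (20.2, 27.6 and 264) and RPS14B (65.7, 162 and 382). Each of these is the minor copy of its pair. RPS22B carries an intron that hosts a snoRNA, snR44, and 100% of its reads in Bdp1AA Rna15AA, 100% in Bdp1AA and 99.6% in WT sat at positions also listed under another feature, snR44 among them. RPS14B is known as the copy whose splicing its own protein represses.

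**Figure D1:**
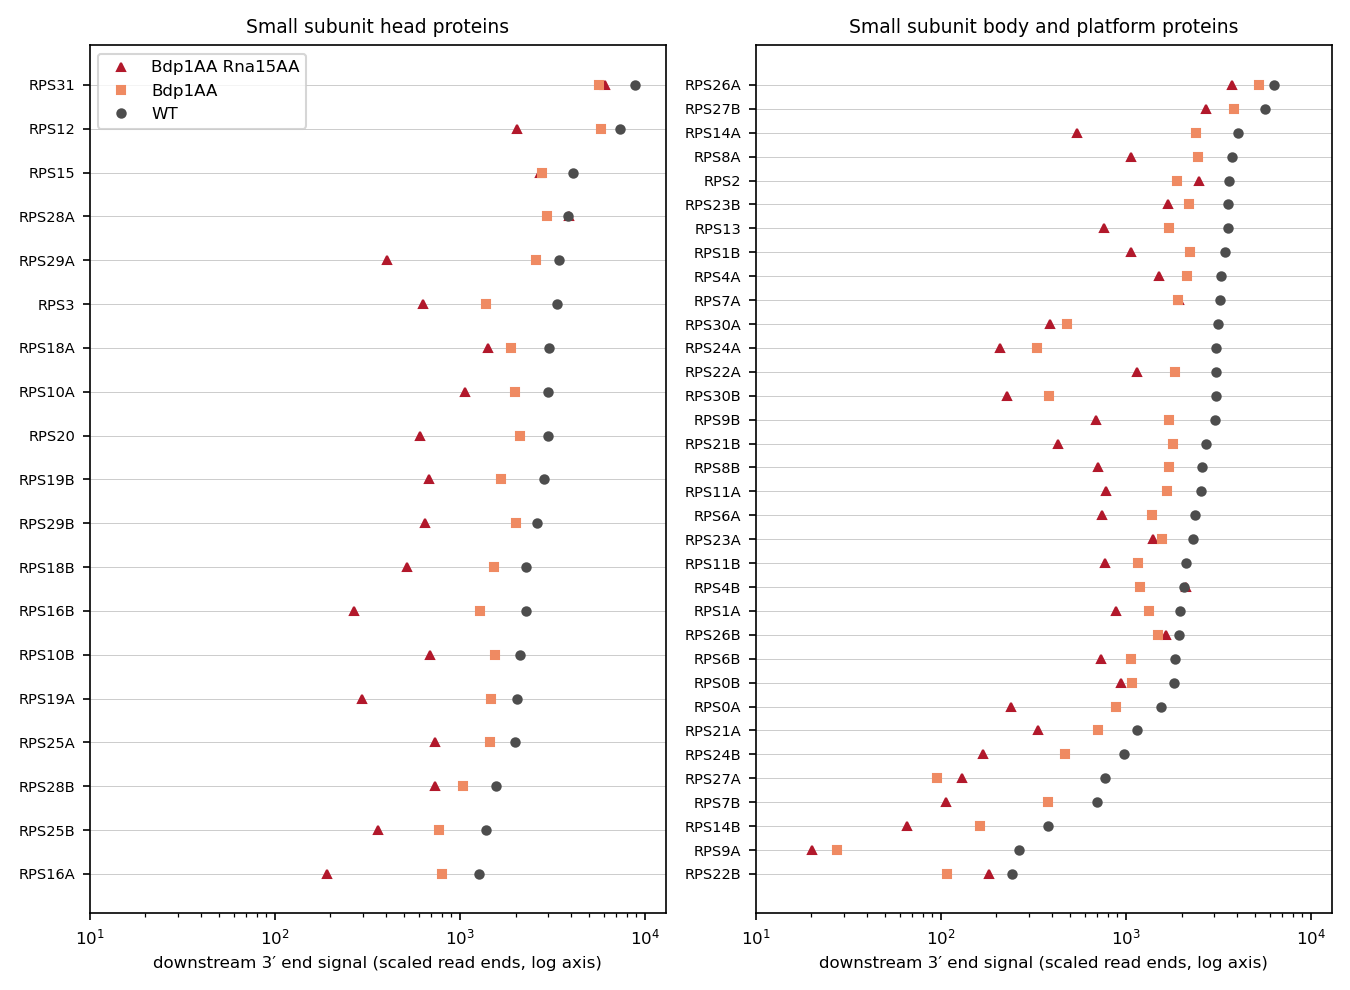
Downstream 3′ end signal of members on a log axis, split into head proteins (left, not all drawn) and body and platform proteins (right) and sorted by WT; triangles are Bdp1AA Rna15AA, squares Bdp1AA and circles WT, each 1 pooled value of 3 libraries without an error. RPS30A, RPS24A, RPS30B, RPS27A and RPS9A have both depletion values far left of WT.

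Depletion of Bdp1 alone left 51 members near the median gene and 5 far below it. Of 56 members, 5 (8.93%) were at least 2-fold lower in Bdp1AA than in WT, where 9.95% of the 4543 compared genes were, and 0 were at least 2-fold higher, where 6.27% of all were. The share of lower members was thus near that of all compared genes. It was above the 0.886% of 1241 other coding genes of the members' length range. What sets the 5 apart is the size of the difference: they lay at −2.20 or lower on the log2 scale, and the next member, RPS3, lay at −0.76. The median over all members was −0.19.

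The low members were RPS9A, RPS24A, RPS27A, RPS30A and RPS30B. RPS9A, which encodes the minor copy of a protein that acts in decoding accuracy, had a signal of 27.6 in Bdp1AA (542 reads) and 264 in WT (6155 reads), a log2 ratio of −2.75 (−2.88 to −2.62). RPS24A, which encodes a protein of the lower body of the subunit, had 331 in Bdp1AA and 3088 in WT, a log2 ratio of −2.71 (−2.75 to −2.67). RPS27A, a zinc-binding protein gene, had 95.2 in Bdp1AA and 770 in WT, a ratio of −2.50 (−2.57 to −2.43). All 3 were therefore more than 5 times lower than the median gene would have placed them. RPS30B had 385 in Bdp1AA and 3068 in WT (−2.48), and RPS30A had 482 and 3158 (−2.20); together they are both copies of 1 pair, which encodes a small basic protein near the decoding site. RPS24A, RPS30A and RPS30B were strong genes in WT, each above the median member, and in Bdp1AA they stood among the weakest. Over 9 other ways of processing, the ratios of the 5 genes stayed between −3.26 and −2.11. In each gene both extremes came from the choice of scale, which moves all genes alike. The range thus says little about the genes' own values.

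All 5 hold an intron and all 5 encode body or platform proteins. Of the 36 members with an intron, 5 were lower, with a median of −0.26, and of the 20 without an intron 0 were lower, with a median of −0.06. Of the 34 body and platform members 5 were lower (median −0.26), and of the 22 head members 0 (median −0.08). Their ends had not moved: mean ends differed by between −1.13 and 0.29 nt, and the end with most signal was identical in both groups for each of them. Other genes were counted by the same splits. Among the genes of the large subunit, 5 of 52 with an intron were lower (median −0.19) and 1 of 29 without (median −0.10). Among 150 coding genes with an intron that belong to neither subunit, 6 were lower and 9 higher, with a median of 0.26. Among 1241 other coding genes of the members' length range, 0.886% were lower and 9.43% higher, with a median of 0.43. Over all 81 genes of the large subunit 6 were lower (7.41%, beside 9.95% of all compared genes), with RPL7B lowest at −2.96. Of these 81 genes 0 were higher, and their median was −0.18.

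The other end of the range was narrow. The highest members in Bdp1AA against WT were RPS26A at 0.24, RPS12 at 0.16, and RPS29B, RPS28A and RPS26B, each at 0.14. RPS26A had 5235 in Bdp1AA and 6327 in WT on the deposited scale, so even the highest member had a lower raw signal in Bdp1AA, and its ratio is positive relative to the median gene alone. RPS29B had 2008 and 2601, RPS28A had 2974 and 3857 and RPS26B had 1488 and 1930. Between them and the 5 low members lay RPS3, whose protein sits at the mRNA entry, with 1388 and 3358, RPS14B (−0.72), RPS22B (−0.66), RPS24B (−0.55) and RPS13 (−0.54).

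**Figure D2:**
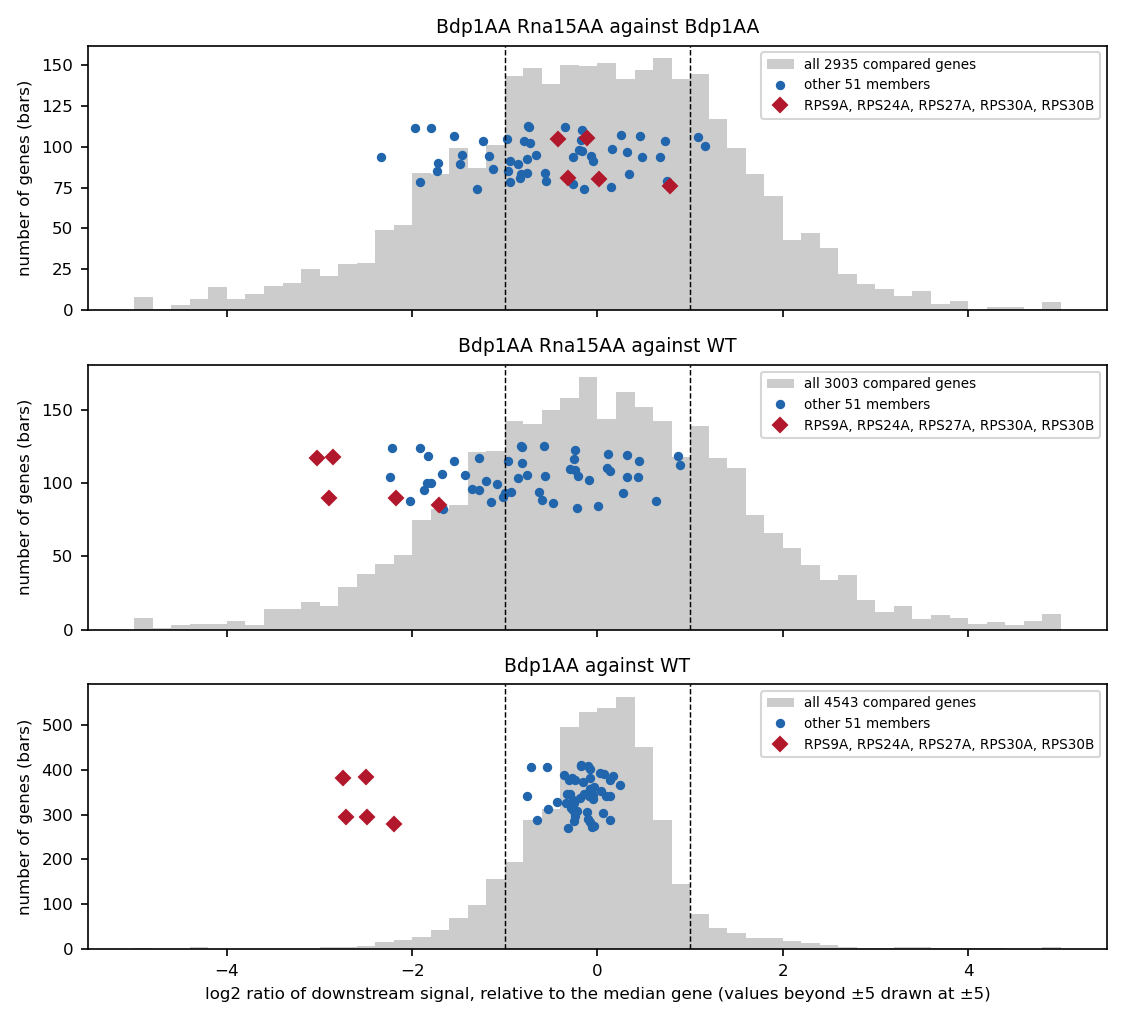
Log2 ratios of signal relative to the median gene in the 3 comparisons: grey bars count all compared genes (left axis), symbols are members at their log2 ratio with random height, diamonds the 5 members lowest in Bdp1AA against WT, and dashed lines the 2-fold limits. In Bdp1AA against WT the diamonds stand apart at −2.20 or lower while the other 51 members lie between −0.76 and 0.24.

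The double depletion gave a broad spread. Against Bdp1AA, 13 of 56 members (23.2%) were at least 2-fold lower, where 25.2% of the 2935 compared genes were, and 2 (3.57%) were at least 2-fold higher, where 25% of all were. The median member lay at −0.56. Other coding genes of the same length range had a median of −0.59 with 38.8% lower and 16.4% higher. Members with and without an intron had medians of −0.56 and −0.51.

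The lowest members of this comparison were mostly head proteins. RPS29A, a small zinc-binding protein of the head, had 405 in Bdp1AA Rna15AA (5345 reads) and 2587 in Bdp1AA (50761 reads), a log2 ratio of −2.34 (−2.38 to −2.30). RPS19A, whose protein is needed for 18S rRNA maturation, had 298 and 1469 (−1.97). The RPS16 pair, whose protein reaches the decoding site from the head, had 269 and 1279 for RPS16B (−1.91) and 191 and 803 for RPS16A (−1.73). RPS14A, the major copy of a platform protein, had 547 and 2390 (−1.79). Of the 22 head members 8 (36.4%) were lower and 0 higher (median −0.78). Of the 34 body and platform members 5 (14.7%) were lower and 2 (5.88%) higher (median −0.29). Of all compared genes 25.2% were lower and 25% higher. Against WT the 2 sets were closer, with 11 of 22 head members lower (median −0.91) and 14 of 34 body and platform members (median −0.85).

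The higher members were RPS4B and RPS22B, both body proteins. RPS4B had 2108 in Bdp1AA Rna15AA, 1187 in Bdp1AA and 2054 in WT, a log2 ratio of 1.16 between the depletions. RPS22B had 182, 108 and 244, a ratio of 1.08. Neither kept its call under every setting: with ends inside the gene included, RPS4B lay at 0.59, and with 200 reads required per gene the values were 0.95 for RPS4B and 0.87 for RPS22B. Next came RPS27A at 0.78, which had 130 in Bdp1AA Rna15AA and 95.2 in Bdp1AA, then RPS2, a decoding accuracy protein, at 0.75 with 2500 and 1881, and RPS28A at 0.73 with 3895 and 2974.

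Against WT, 25 of 56 members (44.6%) were at least 2-fold lower in Bdp1AA Rna15AA, where 24.6% of 3003 compared genes were, and 0 were at least 2-fold higher, where 26.1% were. The median member lay at −0.85. This comparison shares its WT table with the one for Bdp1AA, and its double depletion table with the one between the depletions, so it is not independent of either. The count depends on the scaling: with median-of-ratios scaling 16 members were lower and 3 higher. The lowest members were RPS24A at −3.03 (210 in Bdp1AA Rna15AA and 3088 in WT), RPS30B at −2.90 (227 and 3068) and RPS9A at −2.86 (20.2 and 264). RPS29A followed at −2.23 and RPS16B at −2.22 (269 and 2271). RPS30A lay at −2.17 (387 and 3158) and RPS27A at −1.71 (130 and 770). For the 5 members lowest in Bdp1AA against WT, the difference between the depletions themselves was small beside this, from −0.43 for RPS30B to 0.78 for RPS27A. RPS9A, at −0.12, is an exception that depends on read assignment. Its reads in Bdp1AA Rna15AA include 67.3% at positions also listed under RPL21B. With ends counted under the nearest gene, RPS9A lay at −1.70 between the depletions. Among the highest members were RPS4B at 0.89, RPS28A at 0.87, RPS26B at 0.63 (1648 and 1930) and RPS22B at 0.43.

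Other lists of the ribosome and its makers were set beside the members. Of 80 large subunit genes compared in Bdp1AA Rna15AA against Bdp1AA, 27 (33.8%) were lower and 0 higher, with a median of −0.66. Of all genes 25.2% were lower and 25% higher. In Bdp1AA Rna15AA against WT 36 of 80 (45%) were lower and 1 (1.25%) higher, with a median of −0.86. Here 24.6% of all were lower and 26.1% higher. The mitochondrial small subunit, whose listed proteins have nuclear genes of their own, had medians of 0.47 between the depletions, 0.72 for Bdp1AA Rna15AA against WT and 0.29 for Bdp1AA against WT. Between the depletions 3 of its 15 compared genes were lower (20%) and 4 higher (26.7%), near the 25.2% and 25% of all genes. Against WT 2 of 16 were lower (12.5%) and 6 higher (37.5%) in Bdp1AA Rna15AA, beside 24.6% and 26.1% of all, and 0 of 19 in either direction in Bdp1AA. Among the 13 regulators of ribosomal protein genes, few had enough reads. Of 9 compared in Bdp1AA against WT, 1 was lower (11.1%), IFH1, a coactivator of these genes, at −1.58, and 0 were higher. Of all genes 9.95% were lower and 6.27% higher in this comparison. Between the depletions 1 of 5 was lower (20%), HMO1, which binds ribosomal protein promoters, at −1.21, and 3 were higher (60%), with IFH1 at 1.86. The shares of all genes were 25.2% and 25%. For Bdp1AA Rna15AA against WT, 0 of 5 were lower and 0 higher. Of 14 dedicated chaperones and assembly partners, 3 (21.4%) were lower and 3 (21.4%) higher between the depletions, near the 25.2% and 25% of all genes. For Bdp1AA Rna15AA against WT 5 of 14 (35.7%) were lower and 2 (14.3%) higher, beside 24.6% and 26.1% of all. In Bdp1AA against WT 1 of 15 (6.67%) was lower, TSR1 at −1.27, beside 9.95% of all.

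The members ended close to their genes. The median of their mean ends lay 131 nt past the coding sequence in Bdp1AA Rna15AA, 111 nt in Bdp1AA and 111 nt in WT, against 153, 117 and 119 nt for coding genes. In WT the range was 52.2 to 643 nt. The end with most signal held a median of 29.5%, 30.8% and 31.1% of a member's signal in these groups, so that most members used several neighbouring ends. Over coding genes, whose signals were far lower, the medians were 37.7%, 39.2% and 37.7%. The number of ends seen thus depends on depth as well, and use of several ends is not particular to members. No member shifted by 20 nt or more in Bdp1AA against WT, where 2.33% of all compared genes moved distally and 0.902% proximally, and in 0 members did 20 percentage points of reads use other sites (1.52% of all). The median shift was −0.26 nt, and 55 of 56 members kept the same top end. The exception was RPS7B.

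RPS7B encodes a copy of Rps7, a protein that takes part in early 18S rRNA processing. Its shift of 12.1 nt was the largest of any member in Bdp1AA against WT. In Bdp1AA Rna15AA and in Bdp1AA its top end lay at 205 nt, with 43.7% and 38.9% of the signal, and in WT it lay at 195 nt with 43.9%. The end at 195 nt is the first capital of the RPS7B window and the end at 205 nt the next. The last capital, at 217 nt, held 24.5% in Bdp1AA Rna15AA, 25.3% in Bdp1AA and 4.72% in WT, while the end at 195 nt held 5.23% and 6.12% in the depletions. Ends beyond 200 nt, a split set after the profile was seen, made up 91.0% of reads in Bdp1AA Rna15AA (1288 of 1415; 89.4 to 92.5), 88.6% in Bdp1AA (6610 of 7464; 87.8 to 89.3) and 36.1% in WT (5863 of 16239; 35.4 to 36.8). The profiles of both depletions nearly coincided, and WT stood apart. RPS7B is also the 1 member with an annotated tRNA gene within 500 bp past its end, a leucine tRNA gene on the opposite strand (YNCN0007W, chrXIV:443006-443119, plus strand), whose near edge lies 279 nt and whose far edge lies 392 nt past RPS7B. All listed RPS7B ends lay short of it, the furthest at 249 nt in Bdp1AA Rna15AA and at 240 nt in both Bdp1AA and WT. Its signal was 107 in Bdp1AA Rna15AA, 380 in Bdp1AA and 697 in WT, a log2 ratio of −1.49 between the depletions and of −0.36 for Bdp1AA against WT.

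In the double depletion the members ended further downstream. Against Bdp1AA, 18 of 56 (32.1%) ended at least 20 nt further downstream on average, where 42.2% of all compared genes did, and 0 ended 20 nt or more upstream, where 1.26% did. In 6 members 20 percentage points of reads or more used other sites, where 27.1% of all genes passed this limit. The median shift was 10.2 nt for members and 12.6 nt for all genes, and 53 of 56 members had a positive shift. Against WT the same limits gave 18 distal members (41.9% of all genes), 0 proximal (1.17%) and 6 with other sites (26.6%), with a median shift of 10.3 nt. The end with most signal was the one used in Bdp1AA in 49 of 56 members.

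Distal shifts were also counted by gene structure. Among members with an intron 15 of 36 (41.7%) were distal between the depletions, near the 42.2% of all genes, and among those without 3 of 20 (15%). Of other coding genes 42.9% with an intron and 42.5% without were distal. For the large subunit the counts were 23 of 52 with an intron and 6 of 28 without. By position 12 of 35 members that face a convergent neighbour were distal, and 6 of 21 that are followed by a gene on the same strand. Among the paralogs 6 of 24 A copies and 11 of 24 B copies were distal. These counts are descriptions, since no replicate error exists against which to set them.

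**Figure D3:**
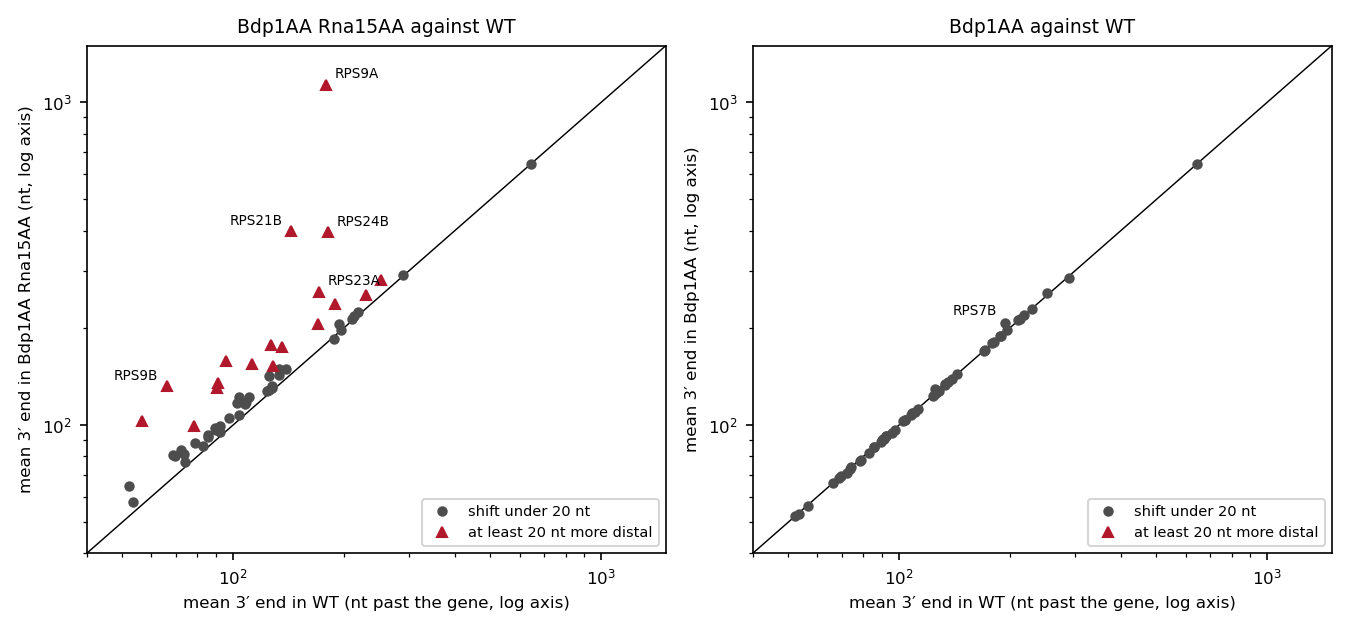
Mean 3′ end of each member, in nt past the gene on log axes, in Bdp1AA Rna15AA (left) and Bdp1AA (right) against WT; each point is 1 member, triangles are members at least 20 nt more distal, and the line marks equal position. On the left 18 members lie above the line by this limit, with RPS9A furthest; on the right there are none, and RPS7B is labelled.

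The largest shifts were in members with reads listed past the start of the next gene. RPS9A had 266 reads in Bdp1AA Rna15AA, of which 179 (67.3%; 61.3 to 72.9) ended at positions also listed under RPL21B, the next gene on its strand, so that its top end lay at 1600 nt. In Bdp1AA and in WT none of its 542 and 6155 reads ended beyond 300 nt, and the furthest ended at 202 nt. The shift of 956 nt thus rests on few reads of a gene whose signal was 20.2. RPS21B shifted by 255 nt through 477 of 5691 reads (8.38%) that ended at positions also listed under GLG2, a glycogenin gene that starts 422 nt downstream; the furthest lay 3295 nt past RPS21B, while its top end stayed at 145 nt in each group. With each end counted under the nearest gene, such reads are dropped from the member by construction. The shift of the remaining reads was −0.97 nt for RPS9A and −1.51 nt for RPS21B, so neither distal shift remained. RPS24B shifted by 216 nt, with 25.6% of its 2244 reads beyond 300 nt (23.8 to 27.4) and 14.5% at positions also listed under MAM33, a mitochondrial protein gene that starts 480 nt downstream on the same strand. No RPS24B read was listed beyond 300 nt in Bdp1AA or in WT; positions below the listing minimum were not seen, so no upper limit is given for a value of 0. With ends counted under the nearest gene the RPS24B shift was 46.2 nt.

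Leaving RPS9A aside, RPS23A had the largest difference in site use. Its protein carries a conserved hydroxylated proline in the decoding centre. In Bdp1AA Rna15AA 42.4% of its 18384 reads ended beyond 300 nt (41.7 to 43.1), against 0.452% of 30947 in Bdp1AA and 0.362% of 53600 in WT. Its mean end lay at 259 nt in Bdp1AA Rna15AA, 171 nt in Bdp1AA and 171 nt in WT, and 57.7 percentage points of reads used other sites than in Bdp1AA. NUP57, a nucleoporin gene on the opposite strand, has its 3′ edge 315 nt past RPS23A, and 38.7% of RPS23A reads ended beyond that edge, antisense to NUP57. RPS23A's signal relative to the median gene was almost level (0.16 between the depletions), and its paralog RPS23B shifted by 19.0 nt.

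RPS18B, which encodes a head protein that touches the P-site tRNA, had 27.9% of its reads beyond 300 nt in Bdp1AA Rna15AA, none of 30210 in Bdp1AA and 0.0526% in WT, with 29.9 percentage points of reads at other sites. RPS16B had 22.4%, 0.303% and 0.372% beyond 300 nt, and 23.9 points at other sites. RPS29B had 19.5%, 0.543% and 0.446%. RPS0A shifted by 44.5 nt with 23.2 points at other sites and almost no read beyond 300 nt (0.379%). In these 4 genes the main WT end remained the strongest end in the double depletion. RPS9B shifted by 65.8 nt. For RPS3 the width that holds the central 90% of its reads was 159 nt in Bdp1AA Rna15AA and 21 nt in both other groups, with no read beyond 300 nt in any group.

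**Figure D4:**
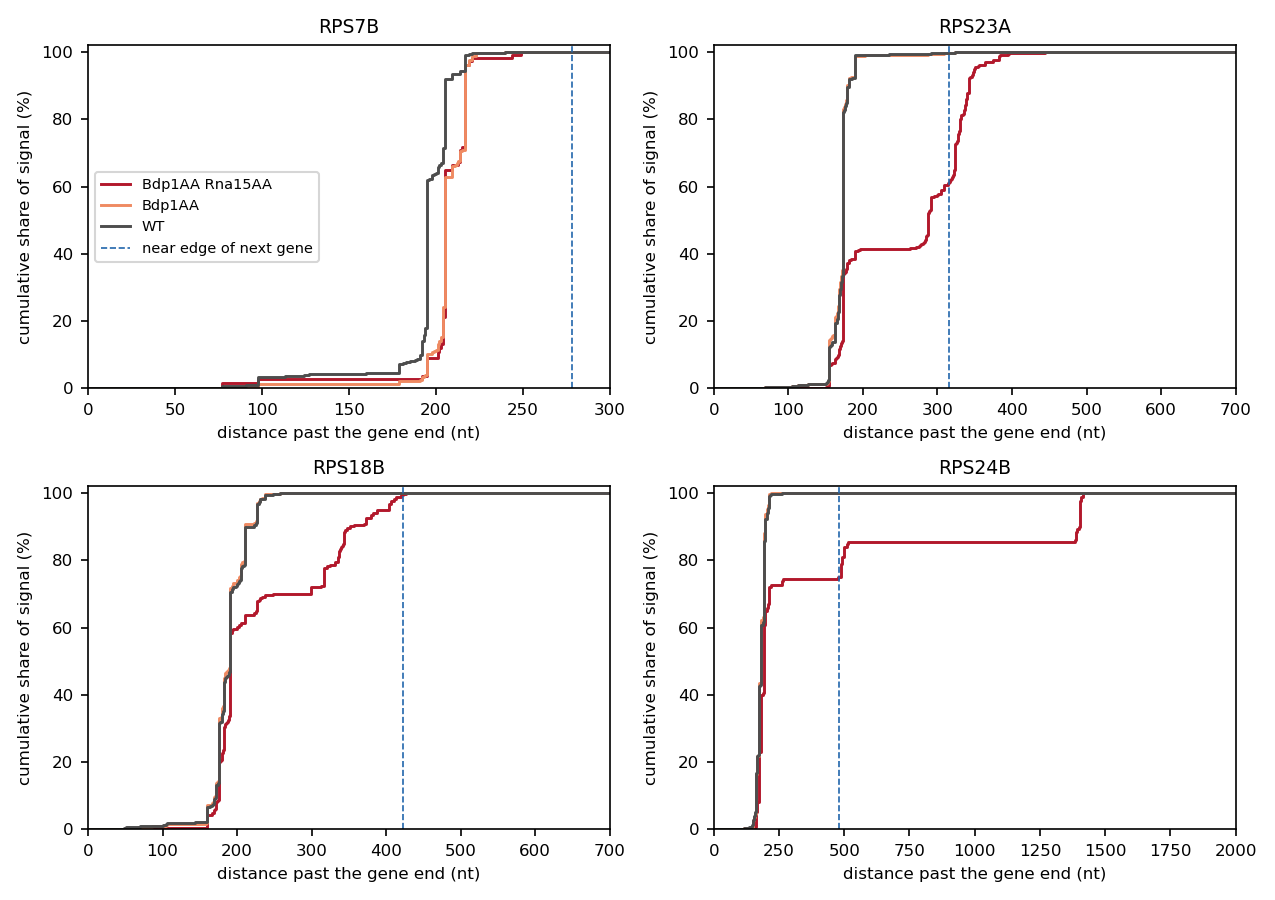
Cumulative share of signal against distance past the gene for RPS7B, RPS23A, RPS18B and RPS24B; red is Bdp1AA Rna15AA, orange Bdp1AA and grey WT, and the dashed line is the near edge of the next annotated gene. In RPS7B both depletions run together to the right of WT; in the other 3 genes Bdp1AA and WT run together and Bdp1AA Rna15AA reaches its plateau later.

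Summed over members, 4.59% of the signal ended beyond 300 nt in Bdp1AA Rna15AA, 1.67% in Bdp1AA and 1.47% in WT, below the 9.90%, 6.49% and 4.44% summed over all coding genes. At least 1% of reads lay beyond 300 nt in 25 members in Bdp1AA Rna15AA, in 4 in Bdp1AA and in 4 in WT. Among coding genes this was so for 1057 of 2971 in Bdp1AA Rna15AA, 450 of 4427 in Bdp1AA and 552 of 5041 in WT. Positions under 11, 17 and 20 reads were left out in these groups, so a share of 1% cannot be seen in genes with few reads. The median member had a signal of 732, 1566 and 2655 and the median coding gene 24.8, 21.1 and 25.7. The 2 sets of counts thus have unlike detection limits. The members with at least 1% beyond 300 nt in every group include RPS28B. Its long 3′ UTR is known to hold a hairpin through which Rps28 and Edc3 control decay of this mRNA. Its top end lay at 647 nt in all 3 groups and its mean end at 644 nt in Bdp1AA Rna15AA and 643 nt in both Bdp1AA and WT. Without RPS28B, a subset chosen after the data were seen, the summed shares were 3.46%, 0.598% and 0.480%. RPS26B had a further site at 740 nt in each group, at positions shared with snR4, a snoRNA gene whose edge lies 386 nt downstream. That site and its neighbours held 5436 of 21739 RPS26B reads in Bdp1AA Rna15AA, 6064 of 29197 in Bdp1AA and 9066 of 44960 in WT.

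Small proximal differences were seen in 3 members between the depletions. RPS21A had a mean end of 185 nt in Bdp1AA Rna15AA and 189 nt in Bdp1AA, a shift of −3.55 nt, RPS7B had a shift of −1.24 nt and RPS8A of −0.59 nt. None reached 20 nt. In Bdp1AA against WT proximal shifts included −2.56 nt in RPS20 and −1.19 nt in RPS25A.

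Some positions used by members were also listed under other features that end upstream of those positions. In Bdp1AA Rna15AA this was so for 13 members and 16 features, with 6201 reads. In Bdp1AA the numbers were 2 members and 2 features (4636 reads), and in WT 4 members and 5 features (29360 reads). Of these reads 2374, 2057 and 4915 were listed under snR44, which lies within RPS22B's own intron. The WT number was mostly 19126 reads listed under FYV1 at the ends of RPS11A. In Bdp1AA Rna15AA 141 reads listed under MRS6 ended at RPS12's ends, a mean of 1085 nt past MRS6.

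The copies of a pair encode the same or nearly the same protein, but their 3′ UTRs have little in common. Coding sequences of a pair were 84.3% to 99.2% identical (median 92.7%), and the stretches from stop codon to the WT top end were 15.3% to 49.6% identical (median 34.8%), with a longest shared run of 7 to 11 nt. As a direct RNA read starts in the 3′ UTR, the copies can be separated there. The authors' rule for assigning reads to genes, not given in the sources used here, could bear on pairs whose coding sequences are alike. The mean ends of the copies lay a median of 112 nt apart in Bdp1AA Rna15AA, 78.0 nt in Bdp1AA and 77.7 nt in WT.

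The A copy was the stronger in 14 of 24 pairs in Bdp1AA Rna15AA, in 15 in Bdp1AA and in 16 in WT. A single copy held over 90% of the pair's signal in 3, 4 and 3 pairs of Bdp1AA Rna15AA, Bdp1AA and WT. In Bdp1AA against WT the A share differed by 10 percentage points or more in 1 of 24 pairs, RPS24, and the median absolute difference was 2.44 points. In the RPS24 pair the A share was 55.2% in Bdp1AA Rna15AA (53.8 to 56.6), 41.4% in Bdp1AA (40.6 to 42.2) and 76.0% in WT (75.7 to 76.2). The stronger copy was therefore RPS24B in Bdp1AA and RPS24A in the other groups. Pairs with a minor A copy gave smaller point differences: the A share of RPS27 was 4.59%, 2.41% and 12.0%, and that of RPS9 was 2.85%, 1.59% and 8.05%. The RPS9 share in Bdp1AA Rna15AA counts RPS9A reads of which 67.3% sat at positions also listed under RPL21B. In the RPS30 pair both copies were low in Bdp1AA against WT, and the A share was 63.1%, 55.6% and 50.7%.

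The double depletion had another balance in more pairs. Against Bdp1AA the A share differed by at least 10 points in 10 of 24 pairs, higher in 6 and lower in 4, and against WT in 11 pairs, higher in 6 and lower in 5. RPS0, whose protein holds the solvent side of the body, had an A share of 20.3% in Bdp1AA Rna15AA (19.7 to 20.9), 45.2% in Bdp1AA and 46.0% in WT. RPS4 had 41.7%, 64.4% and 61.3%, and RPS29 had 38.5%, 56.3% and 57.0%. In RPS4 and RPS29 the stronger copy by downstream signal was B in the double depletion and A in both other groups. For RPS4 this rests on leaving out ends inside the gene. In Bdp1AA Rna15AA, Bdp1AA and WT these held a signal of 687, 1167 and 1556 for RPS4B and 11.7, 12.9 and 26.9 for RPS4A. With them included, RPS4B was the stronger copy in every group. RPS18 lay the other way, with 73.2%, 55.0% and 57.0%. RPS19 had 30.3%, 46.9% and 41.7%, and RPS21 had 43.7%, 28.3% and 29.9%. The lower copy of a pair was not always the one with the larger distal shift. In RPS18 and RPS21 it was: RPS18B lay at −1.23 with a shift of 47.9 nt and RPS18A at −0.07 with 12.2 nt, and RPS21B lay at −1.72 with 255 nt (−1.51 nt under the nearest-gene count) and RPS21A at −0.75 with −3.55 nt. In RPS0 both copies passed the 20 nt limit, RPS0A at −1.55 with 44.5 nt and RPS0B at 0.15 with 24.6 nt. In RPS29 and RPS19 the copy that shifted was the other one. RPS29A lay at −2.34 with 2.86 nt and RPS29B at −1.30 with 35.8 nt, and RPS19A lay at −1.97 with 10.9 nt and RPS19B at −0.95 with 38.8 nt.

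**Figure D5:**
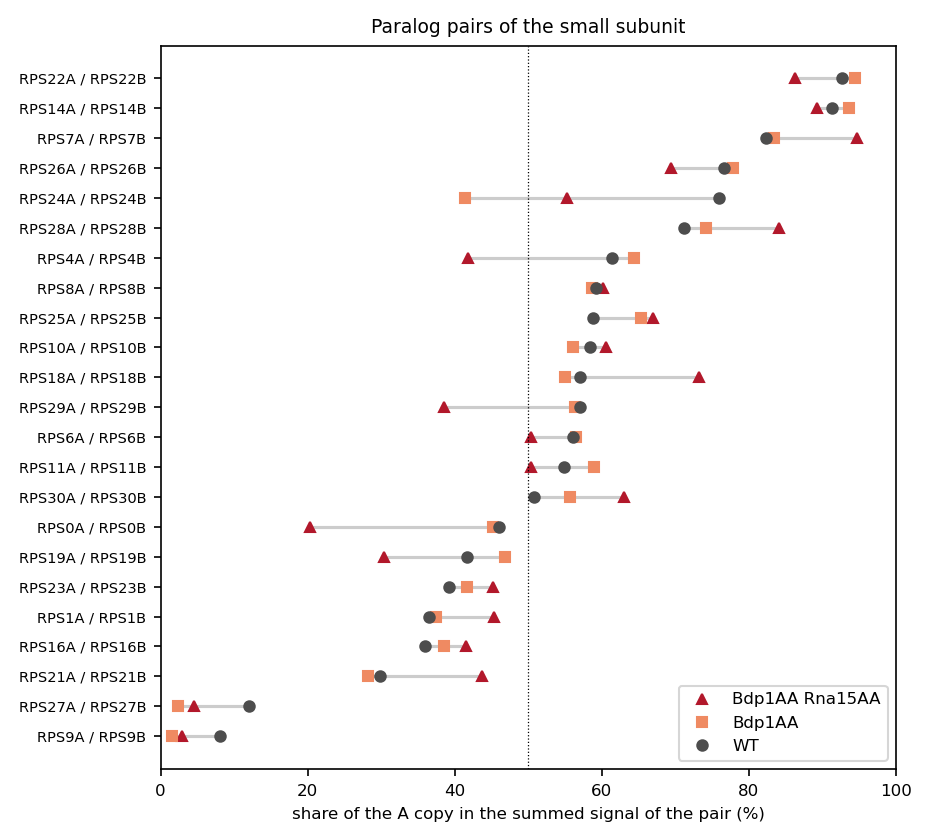
Share of the A copy in the summed signal of the pairs (not all drawn), in percent; triangles are Bdp1AA Rna15AA, squares Bdp1AA and circles WT, the grey line spans the 3 values, and counting intervals are at most a few points wide and are left out. RPS24 is the pair whose Bdp1AA share (41.4%) lies far from WT (76.0%); in most other wide pairs the triangle alone lies apart.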

How the data were processed

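Nanopore direct RNA reads of 9 libraries in 3 groups were analysed from 1 table per group. The build was R64, per the submitters' processing notes, with aligner and read assignment not given in the sources used here. Each table holds, per gene and 3′ end position, a signal deposited by the authors, pooled over 3 libraries, on a scale that no label or header explains. All values were whole multiples of 1 step per table (largest distance 5.82e-11 of a read), taken as 1 read. Tables list positions from 11 reads up (Bdp1AA Rna15AA), 2 (Bdp1AA) and 11 (WT), so positions below a signal of 0.834 (11, 17 and 20 reads) were left out, which kept 100%, 94.4% and 98.1% of downstream signal. A comparison took genes that reached 60 reads in each of its tables, with Python 3.11.15, pandas 2.3.3 and scipy 1.17.1. Ends at most 25 nt apart, with 10 reads or more, made a site. On the minus strand ends inside genes are listed too; these were left out of the comparisons. The procedure was tested on simulated data. Edges and sequences come from RefSeq's R64 assembly.

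The members, lists and tests were chosen with earlier results of these data known. Some members are counted in every total but not reported here by name. Otherwise full values are given for the members with most and least WT signal, the lowest, highest and most shifted of each comparison and the pairs with the largest A-share differences. The tests planned for counts per library were replaced by values with exact intervals, as the tables pool libraries. Alternatives in scaling, minimum, limits and read assignment are given below.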

Additional observations from a re-analysis of the deposited data

Results flagged for a closer look

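On the minus strand the tables also list ends inside genes, which no comparison above uses. In 5 members such ends took a larger share of the listed reads in a depletion table than in WT, with intervals that did not overlap. For RPS27B this was 11 of 35565 reads in Bdp1AA Rna15AA (0.0309%) and none in Bdp1AA or WT, mainly at position −164 counted from the last base of the gene. In the other 4 the share was above 1%. Their ends were listed mainly at the last base of the gene or the base before it, that is, at the stop codon. The base after a listed end is mostly A, so an end just past the stop codon cannot be told apart from these. For RPS4B they held 24.6% of reads in Bdp1AA Rna15AA, 49.6% in Bdp1AA and 43.1% in WT. The main listed position was the last base of the stop codon, shown in capitals in the following window of R64.
RPS4B, chrVIII:504461-504490, minus strand: caacaaggtttgtaAacattttaaatattg
For RPS6A they held 40.6% in Bdp1AA Rna15AA (39.9 to 41.4), 36.9% in Bdp1AA (36.5 to 37.4) and 34.6% in WT (34.3 to 34.9). For RPS6B the shares were 10.4%, 20.1% and 16.9%, and for RPS8A 5.11%, 7.75% and 7.11%. RPS4A, the paralog of RPS4B, had 0.767%, 0.597% and 0.819%. For members on the plus strand no such ends are listed, so these shares cannot be had for them. With 1 pooled column per group, no check for single outlying libraries and no test between groups was possible.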

How the results depend on the processing

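No paired analysis was possible because each group's 3 libraries share 1 column, and leaving out a library could not be run for the same reason. In 153 cases a count stayed within 1.5 times its value under another setting, or another summary value within its interval (over members for a median, of read counts for a share); the 69 others follow, each with Bdp1AA Rna15AA against Bdp1AA, Bdp1AA Rna15AA against WT and Bdp1AA against WT in this order unless a group is named. On the deposited scale lower members numbered 26, 43 and 10 and the medians were −0.89, −1.70 and −0.70, with 0 higher between the depletions. With median-of-ratios scaling 6 and 3 members were higher in the first 2 comparisons, 16 were lower against WT in the double depletion, and the medians were −0.17 and −0.37. As shares of total signal, the median for Bdp1AA against WT was −0.30. At 1.5-fold, 27 members were lower between the depletions and 8 in Bdp1AA against WT, and 6 and 3 were higher in the first 2 comparisons. With 200 reads required, 21 were lower and 0 higher between the depletions, and the medians against WT were −1.21 for the double depletion and −0.31 for Bdp1AA. With 20 reads required, 2 were higher in the double depletion against WT. Within the interval, but by over 1.5 times, the median between the depletions moved to −0.30 with the minimum as deposited and −0.33 with 20 reads required, and that for Bdp1AA against WT to −0.10 with median-of-ratios scaling. With ends inside genes included 1 was higher between the depletions. With the minimum as deposited the median for Bdp1AA against WT was −0.42. Without the 5 members lowest in Bdp1AA, chosen after seeing the data, 0 were lower there by construction. No setting gave a positive median.

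Distal members numbered 28, 29 and 1 at a 10 nt limit, 7 and 7 at 50 nt, and 4 and 4 with median positions, where the median shifts were 0.50, 0.50 and 0 nt; at 2 times the minimum the median shift between the depletions was 7.71 nt. With median positions the shifts of RPS26B were −14 nt against Bdp1AA and −18 nt against WT. Counting ends under the nearest gene drops, by construction, a member's reads at positions also listed under a nearer gene. It left small proximal values in the double depletion for RPS9A (−0.97 nt against Bdp1AA, −0.87 nt against WT), RPS21B (−1.51 and −1.12 nt) and RPS26B (−0.16 and −1.11 nt). Sites joined at 10 nt gave 10 members with other sites between the depletions, and joined at 50 nt gave 3 and 3. Pairs with another A share numbered 16, 20 and 5 at 5 points, and 2 and 2 at 20 points.

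The members' share of signal in Bdp1AA Rna15AA, Bdp1AA and WT was 12.3%, 13.8% and 17.1% under the nearest gene, 10.9%, 12.3% and 15.5% with ends inside genes, and 12.0%, 13.7% and 17.0% at 2 times the minimum; with the minimum as deposited it was 12.8% in Bdp1AA and 16.3% in WT. The share beyond 300 nt was 3.81%, 1.35% and 1.23% under the nearest gene, 4.49%, 1.63% and 1.44% with ends inside genes, 7.58%, 2.36% and 2.33% as a mean over members, and 3.46%, 0.598% and 0.480% without RPS28B (chosen after seeing the data); it was 4.31% in Bdp1AA Rna15AA at 2 times the minimum and 1.69% in Bdp1AA with the minimum as deposited. The order of the groups was the same in each of these. Depth was lowest in Bdp1AA Rna15AA, where RPS9A rests on 266 reads.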
